A study of Homo sapiens with 19 samples.

Results

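Simple epithelial keratins are the intermediate filament proteins of single-layered epithelia, and 6 of their genes were followed here by Ensembl gene identifier: KRT7, KRT8, KRT18, KRT19, KRT20 and KRT23. They are 6 of the 32732 genes listed in every orbital shaker library and of the 58721 listed in every ultra-low attachment library, and all 6 were listed in all 19 libraries. The libraries came from human liver organoids (HLOs), clusters of liver-directed cells grown from W01, a human pluripotent stem cell line from WiCell with a wild-type genotype. Single cells were profiled with the 3′ v3 droplet chemistry of 10x Genomics, in which each captured transcript carries a unique molecular identifier (UMI). Organoids on ultra-low attachment plates (ULA) were untreated and were sampled on day 21 (n = 3 libraries) or day 34 (n = 2). Organoids on an orbital shaker (OS) were all sampled on day 25, in 7 groups of 2 libraries; treatment with TGFB1 or PA lasted 5 days, and the duration for OA is not given in the sources used here. These were 10 ng/ml of TGFB1, the cytokine transforming growth factor β1, PA at 500 µM and OA at 500 µM, a control group for each of the 3, and an untreated group. PA and OA are kept as abbreviations because no label writes them out, and what each control received is not given in the sources used here. All groups shared 1 line, so every library describes 1 genetic background. Dissociation was longer for day 34 ULA and for OS organoids, which had 10 more minutes in trypsin and a further wash. No label says that replicate libraries came from separate cultures, so p-values measure the spread between these libraries, which may be technical.

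Keratin filaments are obligate heteropolymers: a basic type II chain pairs with an acidic type I chain. KRT7 and KRT8 are type II, while KRT18, KRT19, KRT20 and KRT23 are type I. In adult liver, hepatocytes carry the KRT8 and KRT18 pair, and bile duct cells add KRT7 and KRT19, which makes that second pair a ductal marker. KRT20 is best known from the differentiated epithelium of the intestine and stomach and from the urothelium. KRT23 is a less studied type I keratin that has been described in stressed liver and in gastrointestinal epithelium.

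The deposited libraries held 7476533 to 92522222 UMIs. Cells with 500 or more genes and no more than 20% mitochondrial counts were kept, which left 3089 to 12427 cells a library with a median of 1310 to 14304.5 UMIs per cell. The shallowest was TGFB1 control replicate 1. Any pair of libraries shared at most 32 cell barcodes, and at most 0.581% of the barcodes of the smaller library. The hepatocyte marker ALB, which encodes serum albumin, was at 0.136 and 0.102 CPM (UMI counts scaled to 1 common total for each library) in the TGFB1 libraries (6 and 4 UMIs) and at 0.0385 and 0.307 CPM at ULA day 34, against 687 and 301 CPM with OA, so albumin transcripts were near absent in some of these organoids. The whole list of 16 hepatocyte markers did not follow ALB with TGFB1. It summed to 5509 and 4687 CPM there, against 3266 and 4958 CPM in the TGFB1 control, with overlap. Clusters of cells were built in each experiment without the 6 keratins or 17 other type II and 16 other type I keratins among the variable genes. They were named only where at least 3 markers of 1 type were among their top 50 genes. Some of the squamous markers are keratins, so squamous-like names are not independent of keratin expression. Mesenchymal-like clusters made up 0.874% and 0.558% of cells with OA against 27.8% and 29.1% in its control, and 4.12% to 34.0% in the other OS libraries. Since a keratin level in a whole library falls when keratin-poor cells are added, the TGFB1, PA, OA and ULA comparisons were also made outside these clusters. Only clusters with that name were left out, so other clusters with more mesenchymal than epithelial marker UMIs stayed in.

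The keratin genes sit in the type II cluster on chromosome 12 and the type I cluster on chromosome 17 of GRCh38. In GENCODE release 44, KRT7 spans chr12:52232520-52252186 on the plus strand and KRT8 spans chr12:52897187-52949954 on the minus strand. KRT18 (chr12:52948871-52952906, plus strand) is the type I gene that lies in the type II cluster. The remaining type I genes are on the minus strand, with KRT20 at chr17:40875889-40885242, KRT23 at chr17:40922700-40937646 and KRT19 at chr17:41523617-41528308. The KRT8 and KRT18 models overlap by 1084 bases on opposite strands. The overlap lies at the 5′ end of both models, whereas the libraries were of 3′ chemistry. How the counting treated strand is not given in the sources used here, so reads in that overlap could have gone to either gene. KRT8 and KRT18 also have many processed pseudogenes: the ULA reference listed 50 for KRT8 and 68 for KRT18, which took up to 0.301% and 1.05% of the combined UMIs, while the OS references listed none. Levels are CPM over a library's kept cells and were not divided by gene length, so they are compared within a gene and not between genes. ULA and OS levels were counted over different gene lists and were not tested against each other. The OS libraries also differed: those of the TGFB1 and PA experiments listed 33538 genes, and the OA, OA control and untreated libraries listed 36601. The order of the 9 groups therefore crosses these lists.

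**Figure D1:**
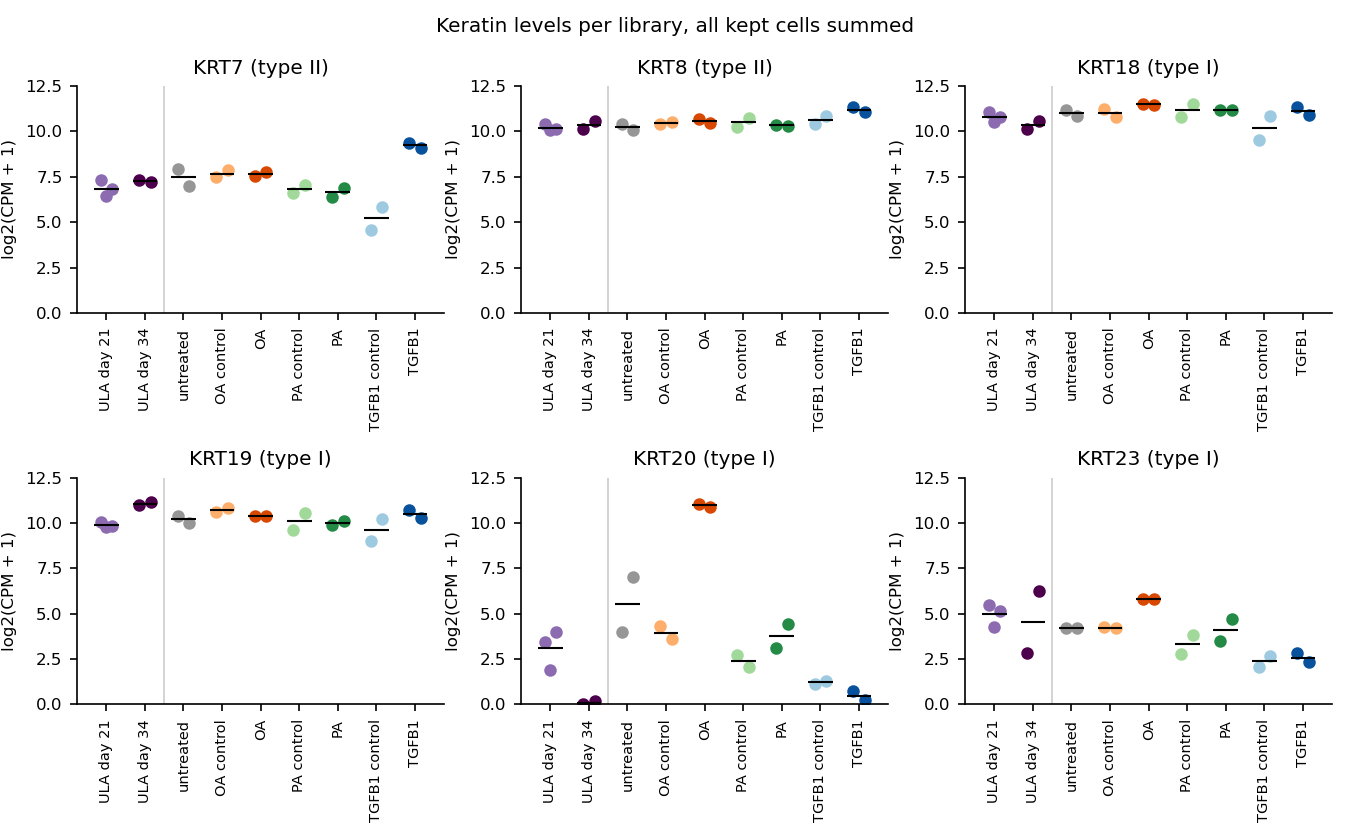
Level of each keratin in each library as log2(CPM + 1) on the vertical axis, with the 9 groups on the horizontal axis, 1 point a library and a black line at the group mean; the grey line divides ULA from OS. KRT7 stands highest in the TGFB1 libraries and KRT20 in the OA libraries, while KRT8, KRT18 and KRT19 stay above 500 CPM in all 19 libraries.

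KRT7, the type II keratin of ducts, had the widest spread of the type II genes over the 9 groups. Its mean was 602 ± 92.6 CPM (SD, n = 2) with TGFB1 and 39.7 ± 23.9 CPM (SD, n = 2) in the TGFB1 control, the highest and the lowest group. The 7 groups between them ran from OA control at 206 ± 43.0 CPM to PA at 101 ± 25.2 CPM (SD, n = 2 each), and each overlapped its neighbour in this order. KRT8, the type II partner of simple epithelia, varied least: TGFB1 stood apart at 2349 ± 322 CPM (SD, n = 2), and the other 8 groups lay between 1578 ± 327 CPM in the TGFB1 control (SD, n = 2) and 1192 ± 147 CPM at ULA day 21 (SD, n = 3), all overlapping in sequence.

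Of the type I genes, KRT18 was highest with OA at 2866 ± 20.8 CPM and lowest in the TGFB1 control at 1279 ± 777 CPM (SD, n = 2 each), and every neighbouring pair of groups in its order overlapped. KRT19, the ductal type I keratin, was highest at ULA day 34 at 2129 ± 153 CPM and lowest in the TGFB1 control at 840 ± 476 CPM (SD, n = 2 each). For KRT19 the libraries of ULA day 34 did not overlap those of the next group, OA control, and those of OA did not overlap those of the next group down, untreated. KRT23 was highest with OA at 55.8 ± 0.0925 CPM (SD, n = 2), although ULA day 34 overlapped it at 41.0 ± 49.4 CPM (SD, n = 2), a group whose 2 libraries were far apart. Its lowest groups were TGFB1 at 5.10 ± 1.52 CPM and the TGFB1 control at 4.31 ± 1.53 CPM (SD, n = 2 each), which overlapped.

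KRT20 covered the largest range of the 6. OA was at 1997 ± 202 CPM, far above the untreated group in second place at 72.8 ± 82.1 CPM (SD, n = 2 each). Below them OA control, PA, ULA day 21 and PA control overlapped in sequence from 14.9 ± 5.37 to 4.32 ± 1.70 CPM. The TGFB1 control at 1.34 ± 0.192 CPM, TGFB1 at 0.419 ± 0.339 CPM and ULA day 34 at 0.0658 ± 0.0931 CPM (SD, n = 2 each) were each separate from the group above. Because KRT20 had the widest range of the 6 keratins, the 250 bases before its start (chr17:40885243-40885492, GRCh38.p14, minus strand, from RefSeq) are printed here; 2 of the 6 keratins matched the promoter table. Capitals mark the caudal-type homeobox core TTTAT, read on both strands, so that ATAAA is a match on the other strand.
KRT20 promoter: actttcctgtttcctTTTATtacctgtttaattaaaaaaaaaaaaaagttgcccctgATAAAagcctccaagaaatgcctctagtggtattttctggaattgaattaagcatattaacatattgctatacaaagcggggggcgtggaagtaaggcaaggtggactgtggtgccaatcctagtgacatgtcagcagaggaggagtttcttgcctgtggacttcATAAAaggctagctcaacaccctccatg
The window holds 3 matches, beginning 235, 193 and 28 bases before the start, and 32.7% of the 35116 promoters of this length hold at least 1. The GATA core GATAA has 1 match, which overlaps a TTTAT match on the other strand, and 20.4% of promoters hold it. The exact TATA box letters TATAAA have no match, while 10.7% of promoters hold them, and variants of these letters were not searched. These matches describe letters only.

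TGFB1, a cytokine that drives fibrosis and reshapes epithelia, was compared with its control. KRT7 was the only keratin called, with an edgeR adjusted p under 0.05. It measured 667 and 536 CPM in the TGFB1 libraries and 22.8 and 56.6 CPM in the controls. Both treated libraries lay far above both controls, with no overlap. The log2 fold change was 4.07 (SE 0.45, edgeR quasi-likelihood test, Benjamini-Hochberg adjusted p = 3.99e-05). In whole libraries, more cells with a keratin and more transcript in each such cell cannot be told apart by this number.

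KRT8 measured 2576 and 2121 CPM with TGFB1 against 1347 and 1809 CPM, KRT18 measured 2645 and 1933 CPM against 729 and 1828 CPM, and KRT19 measured 1674 and 1234 CPM against 503 and 1176 CPM. For all 3 the treated libraries were above the controls without overlap, but TGFB1 replicate 2 stood close to control replicate 2. With 2 libraries against 2, values with no true difference can also separate, and an exact permutation test cannot go below p = 0.333. The share of all genes that separate in this way is not given, here or for the marker lists below. The log2 fold changes were 0.76 (SE 0.26, edgeR adjusted p = 0.0507) for KRT8, 0.99 (SE 0.41, adjusted p = 0.0955) for KRT18 and 0.95 (SE 0.39, adjusted p = 0.0962) for KRT19, so none of the 3 passed the threshold of 0.05. KRT23 measured 6.18 and 4.03 CPM against 3.22 and 5.39 CPM and overlapped (0.37, SE 0.42, edgeR adjusted p = 0.548). KRT20 was at the edge of detection, with 29 and 7 UMIs with TGFB1 and 19 and 77 in the controls (-1.501, SE 1.03, edgeR adjusted p = 0.317).

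Thus 1 of the 6 keratins was called with TGFB1, where 22.2% of the 19366 genes tested were. The members' median log2 fold change was 0.85 and that of all genes was -0.05. The count rose to 4 keratins with DESeq2 (KRT8 adjusted p = 0.00781, KRT18 0.0367, KRT19 0.0398), which called 4856 of the 19366 genes. It also rose when control replicate 2 was left out, which leaves the shallow control library alone. Outside mesenchymal-like clusters, 24.4% of genes and 2 keratins were called, KRT7 (4.17, SE 0.47, edgeR adjusted p = 4.27e-05) and KRT8 (0.82, SE 0.26, edgeR adjusted p = 0.0389). The KRT8 call was lost when either TGFB1 library or control replicate 1 was left out (edgeR adjusted p = 0.0823 to 0.237). Mesenchymal markers moved with the treatment: the 14 listed genes, which include COL1A1 and PDGFRB, summed to 1825 and 2239 CPM with TGFB1 and to 749 and 731 CPM in the controls. Other lists were lower with TGFB1, without overlap: the 11 ductal markers summed to 3144 and 3077 CPM against 5223 and 4199 CPM, the 14 gut epithelial markers to 171 and 185 CPM against 609 and 570 CPM, the 10 cycling markers to 83.1 and 75.6 CPM against 674 and 510 CPM, and the 7 immune markers to 44.4 and 32.8 CPM against 228 and 199 CPM. Higher without overlap were the 11 squamous markers, at 63.1 and 54.3 CPM against 14.4 and 16.6 CPM, the 7 trophoblast markers, at 31.2 and 30.02 CPM against 6.39 and 4.48 CPM, and the 8 neural markers, at 128 and 105 CPM against 102 and 82.1 CPM. The part of these lists in the keratin differences was not tested.

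**Figure D2:**
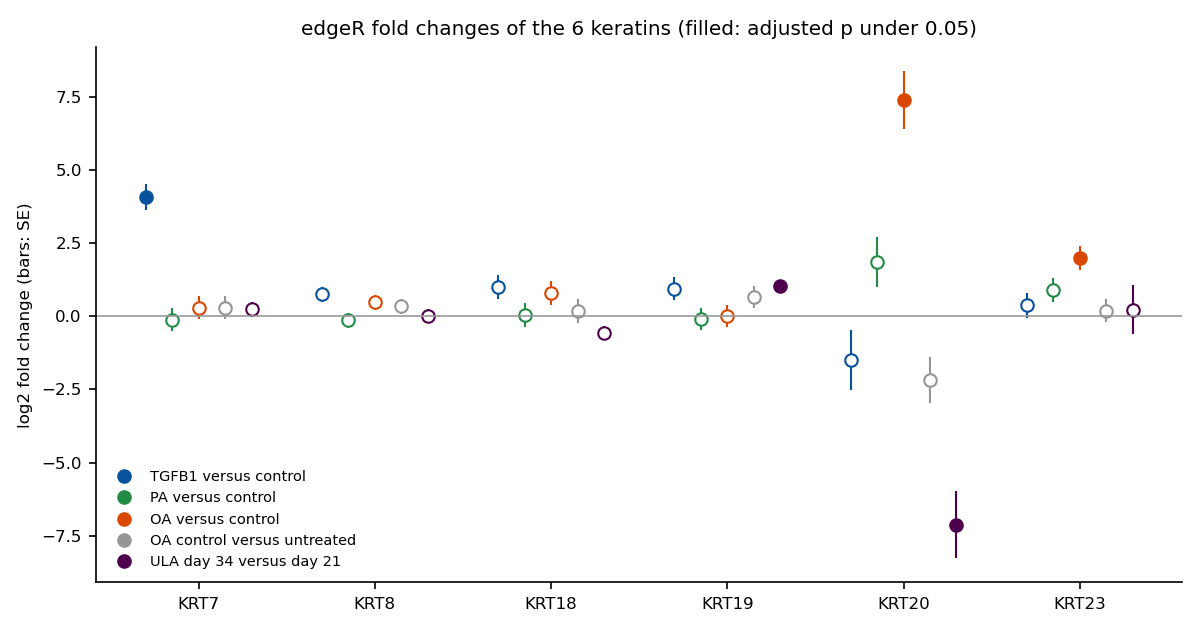
Log2 fold change of each keratin (vertical axis, bars are standard errors) in 5 comparisons; filled points have an edgeR adjusted p under 0.05. The filled points are KRT7 with TGFB1 at 4.07, KRT20 and KRT23 with OA at 7.38 and 1.99, and KRT19 and KRT20 at ULA day 34 at 1.04 and -7.12.

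With PA no keratin was called, and only 0.0465% of all genes were (9 genes by edgeR; DESeq2 called 54, and 540 had an edgeR p below 0.05 before adjustment). KRT18 measured 2302 and 2335 CPM with PA against 1800 and 2929 CPM, and the treated libraries lay between the 2 controls. KRT8, KRT19 and KRT7 lay likewise within or across the control range, with log2 fold changes of -0.13, -0.09 and -0.11. KRT20 measured 7.48 and 20.3 CPM against 5.52 and 3.11 CPM, without overlap (1.86, SE 0.86, edgeR unadjusted p = 0.0486, adjusted p = 1). KRT23 measured 10.3 and 24.9 CPM against 5.96 and 13.3 CPM, with overlap (0.89, SE 0.41, edgeR unadjusted p = 0.0486, adjusted p = 1). The members' median was -0.03, beside 0.02 over all genes. Cycling markers were lower with PA without overlap, at 168 and 181 CPM against 224 and 217 CPM, and immune markers higher, at 287 and 437 CPM against 266 and 242 CPM; their part in the keratin values was not tested. Outside mesenchymal-like clusters no keratin was called either, of 0.0640% of genes.

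With OA, 2 keratins were called, KRT20 and KRT23. KRT20 measured 2140 and 1854 CPM with OA and 18.7 and 11.1 CPM in the OA controls, or 115715 and 96887 UMIs against 1043 and 584. Both treated libraries were far above both controls, with no overlap. The log2 fold change was 7.38 (SE 0.99, edgeR adjusted p = 7.85e-05). KRT23 measured 55.7 and 55.8 CPM against 17.9 and 17.6 CPM. Its replicates nearly coincided in both groups and did not overlap between them (1.99, SE 0.40, edgeR adjusted p = 0.00157).

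The other 4 keratins were not called with OA. With no filter on low counts, or with only the 2 groups in the fit, 3 of 6 keratins were called. All genes called were then 8707 of 27805 and 10547 of 17418. KRT18 measured 2881 and 2852 CPM against 2369 and 1764 CPM, above the controls without overlap (0.79, SE 0.40, edgeR adjusted p = 0.131). KRT8 measured 1672 and 1431 CPM against 1363 and 1439 CPM, with overlap (0.49, SE 0.26, edgeR adjusted p = 0.144). KRT7 measured 185 and 213 CPM against 175 and 236 CPM, so the controls enclosed the treated libraries, with a mean slightly below theirs in CPM and a fitted value above 0 (0.30, SE 0.39, edgeR adjusted p = 0.573). The direction of KRT19 also depended on scaling: at 1340 and 1334 CPM it lay below both controls at 1536 and 1819 CPM, while its fitted log2 fold change, which uses trimmed-mean size factors, was 0.01 (SE 0.38, edgeR adjusted p = 0.982).

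The count for OA was therefore 2 of 6 keratins, beside 43.3% of all genes, with a members' median of 0.64 and -0.08 over all genes, so the members' share is not above the background. Outside mesenchymal-like clusters, where 38.4% of genes were called, KRT20 changed by 7.03 (SE 0.93, edgeR adjusted p = 1.11e-04) and KRT23 by 1.61 (SE 0.39, edgeR adjusted p = 0.0062). The KRT23 value lost its call there without OA control replicate 2 (edgeR adjusted p = 0.0501). Gut epithelial markers moved with KRT20: the 14 listed genes summed to 17946 and 14279 CPM with OA against 3445 and 1858 CPM, while CDX2, the intestinal homeobox factor among them, was at 56.3 and 54.4 CPM against 45.6 and 32.7 CPM and was not called. The hepatocyte list summed to 25980 and 25034 CPM against 13114 and 9467 CPM, and the mesenchymal list to 149 and 122 CPM against 3021 and 4928 CPM. Ductal markers were lower without overlap, at 1501 and 1709 CPM against 1861 and 2012 CPM, as were cycling markers, at 170 and 184 CPM against 563 and 593 CPM, and neural markers, at 99.4 and 86.9 CPM against 197 and 279 CPM. Trophoblast and pluripotent or germ markers, at most 24.9 CPM in these libraries, were lower as well. Clusters 12 and 15 were among those kept outside mesenchymal-like clusters. Their mesenchymal markers summed to 11140 and 2177 CPM, and their epithelial genes to 219 and 192 CPM. They held 4.75% and 3.72% of cells in OA control replicate 1, 5.04% and 11.3% in replicate 2, and at most 0.0621% in the OA libraries. Beyond leaving out mesenchymal-like clusters, the part of these lists in the keratin differences was not tested.

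The OA control libraries also enter the next comparison, OA control against untreated organoids, so the 2 are not independent. No keratin was called there, beside 0.573% of all genes (111 by edgeR; DESeq2 called 702, and 2822 had an edgeR p below 0.05 before adjustment). KRT20 was the least even gene, at 14.8 CPM in untreated replicate 1 and 131 CPM in untreated replicate 2, with the OA controls near the lower value (-2.18, SE 0.79, edgeR adjusted p = 0.228). Without untreated replicate 2 its log2 fold change was 0.25, so the direction rests on that library. KRT19 measured 1536 and 1819 CPM in the OA controls against 1322 and 1029 CPM, without overlap, and KRT7 overlapped at 175 and 236 CPM against 247 and 126 CPM. The log2 fold changes of KRT7, KRT8, KRT18, KRT19 and KRT23 were 0.30, 0.35, 0.18, 0.66 and 0.19. The members' median was 0.24, beside 0.03 over all genes. Of the marker lists, the endothelial one was without overlap, at 87.3 and 84.8 CPM against 73.7 and 64.9 CPM, which 2 libraries against 2 can show with no true difference.

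In ULA culture the keratins were compared between day 34 and day 21. KRT19 measured 2021 and 2237 CPM on day 34 against 1071, 865 and 908 CPM on day 21. All day 34 libraries were above all day 21 libraries (1.04, SE 0.19, edgeR adjusted p = 0.0142). KRT20 went the other way, from 854, 182 and 1208 UMIs on day 21 to 0 and 12 UMIs on day 34 (-7.12, SE 1.15, edgeR adjusted p = 0.00952), so its fold rests on the 12 UMIs of 1 library. These 2 of 6 keratins compare with 15.6% of the 22261 genes tested, and the members' median was 0.12 beside 0.01 over all genes.

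KRT18 measured 1113 and 1503 CPM on day 34 against 2146, 1458 and 1746 CPM, with overlap (-0.57, SE 0.25, edgeR adjusted p = 0.154). KRT8 and KRT7 overlapped too, with log2 fold changes of 0.02 and 0.24. KRT23 was at 6.14 CPM in day 34 replicate 1 and at 76.0 CPM in replicate 2, below and above all 3 day 21 libraries (43.3, 18.4 and 35.1 CPM). With both libraries the fitted value was 0.23 (SE 0.84, edgeR adjusted p = 0.877), and it became -2.54 (adjusted p = 3.77e-04) without replicate 2 and 1.12 (adjusted p = 0.023) without replicate 1, so it describes no common change of the group.

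Leaving out any 1 day 21 library ended the KRT19 call (edgeR adjusted p = 0.0633 to 0.0809), and without day 21 replicate 3 KRT20 was lost as well (edgeR adjusted p = 0.0598). The day 34 libraries differed in makeup: squamous-like clusters held 49.97% of the cells of replicate 2, and cluster 8, led by EGLN3 and SLC2A1, held 45.4% of those of replicate 1. The 11 squamous markers, 5 of which are keratins, summed to 782 and 2122 CPM on day 34 and to 24.2 to 42.4 CPM on day 21. With squamous-like clusters left out, the KRT19 log2 fold change was 0.64 (edgeR adjusted p = 0.127), while that of KRT20 was -6.52 (edgeR adjusted p = 0.0194). Lower on day 34 without overlap were hepatocyte markers, at 100 and 911 CPM against 2586 to 3041 CPM, gut epithelial markers, at 8.58 and 82.0 CPM against 335 to 545 CPM, and cycling markers, at 755 and 1095 CPM against 1670 to 1873 CPM. Immune markers (3.55 and 35.5 CPM against 88.0 to 164 CPM) and pluripotent or germ markers (12.1 and 17.1 CPM against 52.9 to 89.9 CPM) were lower too, while trophoblast markers (231 and 194 CPM against 68.0 to 109 CPM) and neural markers (81.0 and 32.4 CPM against 18.6 to 20.4 CPM) were higher. The part of these lists in the keratin differences was not tested. Outside mesenchymal-like clusters, with 13.7% of genes called, KRT19 was at 1.19 (SE 0.20, edgeR adjusted p = 0.0151) and KRT20 at -6.94 (SE 1.21, edgeR adjusted p = 0.017). That set still held clusters 0, 2 and 15. Their mesenchymal markers summed to 4350, 3725 and 7679 CPM, and their epithelial genes to 105, 86.9 and 123 CPM. Clusters 0 and 2 held 14.2% to 23.1% and 18.3% to 26.0% of day 21 cells, and cluster 15 held 35.5% of day 34 replicate 1. With all clusters higher in mesenchymal than epithelial genes left out, 157 cells of day 34 replicate 1 remained.

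Whether the treatments differed from each other was tested as a difference between their effects. The KRT20 effect of OA exceeded that of PA by 5.52 (SE 1.18, edgeR adjusted p = 0.00602), the 1 keratin called where 20.5% of genes were. Against TGFB1, the OA effect was higher for KRT20 by 8.88 (SE 1.35, edgeR adjusted p = 2.82e-04) and for KRT23 by 1.61 (SE 0.57, adjusted p = 0.0469), and lower for KRT7, at -3.77 (SE 0.58, adjusted p = 3.00e-04). That is 3 of 6 keratins beside 31.8% of genes. The KRT23 call was lost with every deposited barcode (edgeR adjusted p = 0.0544) and when either TGFB1, OA control or OA library or TGFB1 control replicate 2 was left out (edgeR adjusted p = 0.0536 to 0.257). The count was 2 of 6 in these cases, except that without TGFB1 control replicate 2 it was 4, 1 higher and 3 lower. The KRT7 effect of TGFB1 exceeded that of PA by 4.18 (SE 0.58, edgeR adjusted p = 6.50e-04), the 1 keratin called beside 8.80% of genes. KRT23 was not called between OA and PA (1.10, SE 0.56, edgeR adjusted p = 0.187). Each effect enters 2 of these tests with its own controls, so they share libraries.

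The share of cells with at least 1 UMI was taken after each cell was thinned to 1000 UMIs. Thinning evens out depth, but the share still rises with the level. For KRT7 the thinned share was 36.1% and 33.3% of cells with TGFB1 and 1.96% and 3.69% in its control; unthinned it was 71.8% and 67.0% against 3.02% and 14.9%. The treated libraries were well above the controls on both scales. In mesenchymal-like cells, which should lack ductal keratins, the thinned KRT7 share with TGFB1 was 2.64% and 3.04%, at median depths of 8301.5 and 6847 UMIs beside 7156 and 5230 UMIs over all cells. In the control libraries the mesenchymal-like share was 1.66% and 2.03%, beside the 1.96% and 3.69% over all control cells. Thinning left out 2927 cells of TGFB1 control replicate 1 and 190 of replicate 2, beside 127 and 101 of the treated libraries.

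For KRT20 the thinned share was 46.9% and 38.6% with OA and 0.864% and 0.568% in its control, and unthinned 61.4% and 52.001% against 3.57% and 2.36%. None of the 26 and 17 mesenchymal-like cells of the OA libraries had a KRT20 UMI after thinning, too few cells to set a background; in the controls the share in such cells was 0.0688% of 1454 and 0.112% of 893. Untreated replicate 2 had KRT20 in 6.97% of thinned cells and replicate 1 in 0.67%, the same imbalance as in the level. KRT23 was seen in 4.68% and 3.78% of thinned cells with OA against 1.19% and 0.869%.

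Taken over all cells, the other keratins were also detected in more cells with OA. Mesenchymal-like cells, which were keratin-poor, made up 0.874% and 0.558% of cells with OA against 27.8% and 29.1% in its control. Shares outside these cells are not given here, so wider detection and a change in cell mix cannot be told apart. KRT7 was in 13.3% and 17.2% of thinned cells against 9.93% and 10.8%, and unthinned in 50.3% and 53.7% against 30.7% and 37.3%, although its CPM lay within the range of the controls. KRT18 was in 79.7% and 80.1% of thinned cells against 62.3% and 55.7%, KRT19 in 59.1% and 58.7% against 47.1% and 45.3%, and KRT8 in 65.6% and 59.1% against 48.5% and 53.9%. For KRT19 this higher share stood beside a lower CPM in the whole library, so no order is read from it. At ULA day 34 KRT19 was in 47.7% and 65.9% of thinned cells against 42.8%, 29.1% and 38.1% on day 21. Thinned shares were compared in 30 cases, 6 keratins in 5 comparisons. An exact permutation test (two-sided) cannot go below p = 0.333 with 2 libraries against 2 or below p = 0.1 with 3 against 2, and the lowest Benjamini-Hochberg adjusted p over the 30 was 0.833. Free RNA in the droplets can add detections that are not expression.

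**Figure D3:**
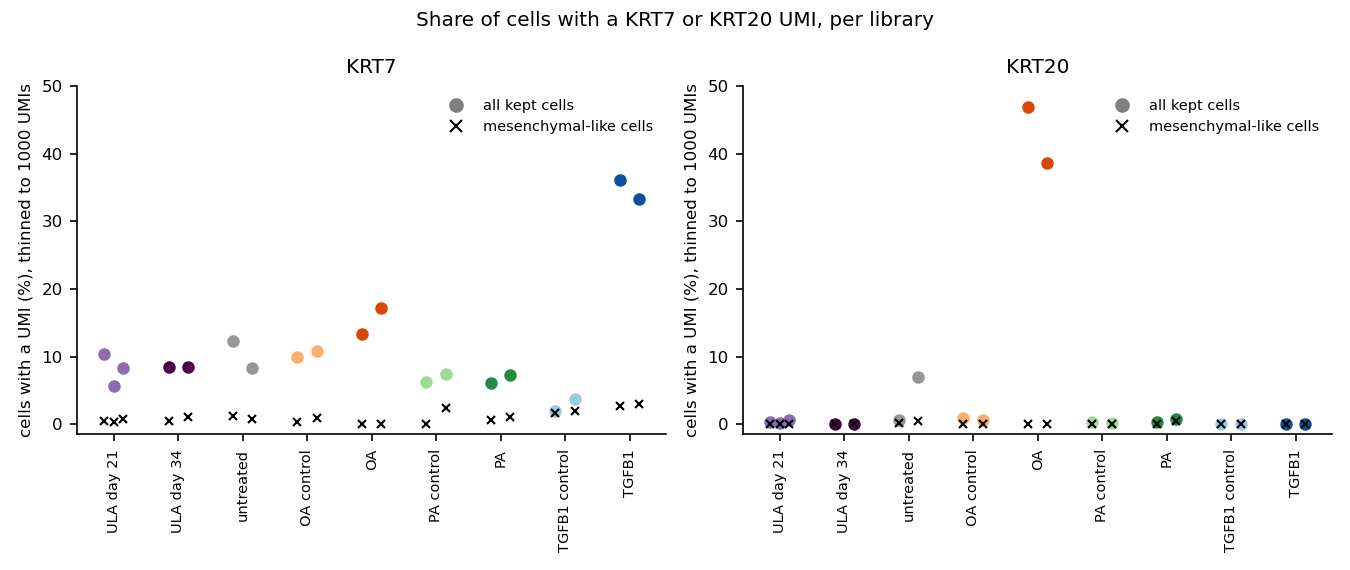
Share of cells with a KRT7 UMI (left) and a KRT20 UMI (right) in percent after thinning to 1000 UMIs, 1 circle a library; crosses give the same share in mesenchymal-like cells. KRT7 reaches 36.1% with TGFB1 and KRT20 reaches 46.9% with OA, and the crosses stay under 4% in every library.

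Keratins work in pairs, so the number and type detected in each thinned cell were counted. Cells with 4 or more of the 6 keratins made up 25.4% and 19.3% of the TGFB1 libraries against 0.568% and 2.39% of the controls, and 25.0% and 21.9% of the OA libraries against 7.30% and 7.89%. Both treatments were above their controls without overlap. Cells with none of the 6 made up 2.90% and 3.88% with OA against 24.2% and 23.2%, a difference that goes with the mesenchymal-like share given above. A type I and a type II keratin were found together in 67.1% and 62.3% of OA cells against 44.6% and 45.1%, and in 81.3% and 76.5% of TGFB1 cells against 49.8% and 71.5%. TGFB1 control replicate 1 had the most cells with type II alone, 20.1%, beside 2.32% to 13.8% in the other libraries.

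**Figure D4:**
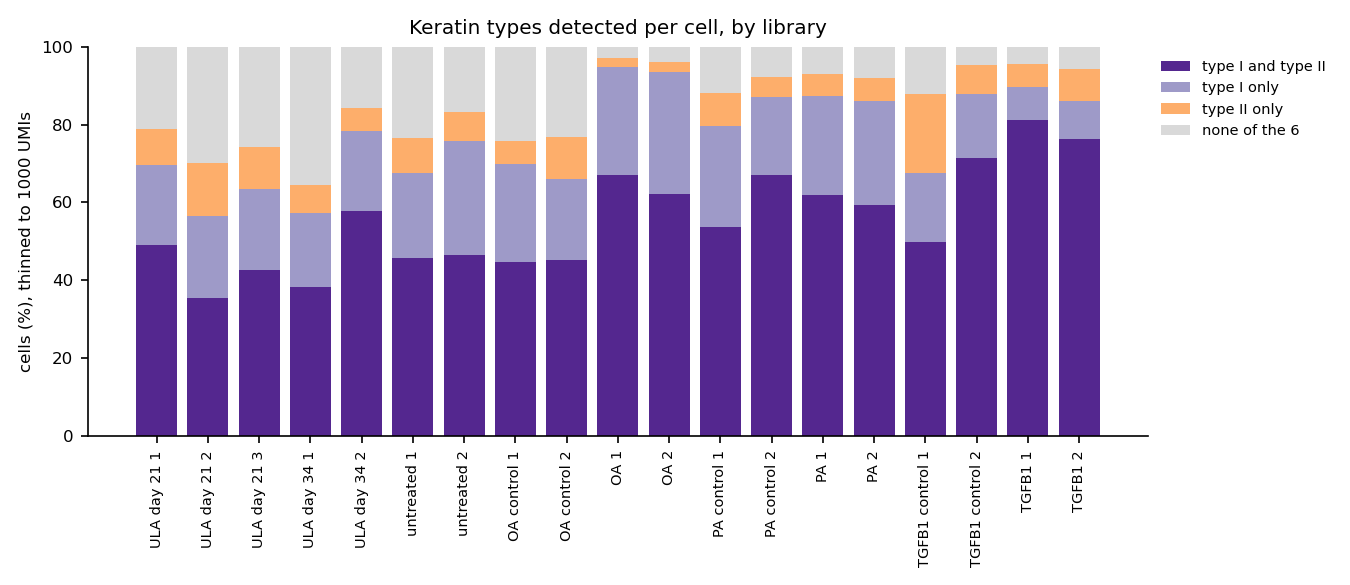
Share of cells (percent, thinned to 1000 UMIs) with both keratin types, type I only, type II only or none of the 6 keratins, as stacked bars for each of the 19 libraries. The OA libraries have the fewest cells with none, 2.90% and 3.88%, and the TGFB1 libraries the most with both types, 81.3% and 76.5%.

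The ratio of KRT8 to KRT18 UMIs was 0.580 and 0.502 with OA against 0.575 and 0.816 in its control, and 0.564 and 0.548 with PA against 0.682 and 0.589. In the TGFB1 experiment it was 0.974 and 1.10 with treatment against 1.85 and 0.989, so the groups overlapped. ULA moved from 0.634, 0.743 and 0.649 on day 21 to 1.01 and 1.00 on day 34, without overlap. Summed over all 6 genes, type II to type I UMIs were 0.289 and 0.270 with OA against 0.390 and 0.464, below the controls, since the added KRT20 and KRT23 are type I. The 6 keratins together took 8273 and 7741 CPM with OA against 5480 and 5287 CPM, and 7569 and 5829 CPM with TGFB1 against 2606 and 4877 CPM.

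Co-detection within cells is given as a description, since cells of 1 library share their depth and source. KRT7 and KRT8 were detected together in 33.5% and 29.9% of thinned TGFB1 cells, where the controls had 1.38% and 3.14%, and the product of the 2 separate shares would give 30.5% and 27.1%. KRT8 and KRT18 were together in 72.8% and 64.3% of TGFB1 cells. The odds ratios of KRT7 with KRT8 were 3.27 and 2.68. Of the 14 pairs whose product was at least 1% in each OA library, 3 in replicate 1 and 2 in replicate 2 had an odds ratio below 1. Few pairs with KRT20 reach that product in the other libraries, where 4 to 9 pairs did, so OA is not compared with them here. Each of the pairs below 1 held KRT20, with KRT7 and KRT18 in both libraries and with KRT19 in replicate 1.

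The lowest in the OA libraries was KRT7 with KRT20. They were together in 4.01% and 5.42% of OA cells where the product gives 6.26% and 6.63%, with odds ratios of 0.44 and 0.69. KRT20 with KRT8 in the same cells had odds ratios above 1, at 1.77 and 1.63. In these libraries KRT20 and KRT7 shared fewer cells than their separate shares would give, while KRT20 and KRT8 shared more. KRT20 was found in 50.4% and 46.6% of KRT23-positive OA cells, and the pair KRT20 and KRT23 had odds ratios of 1.15 and 1.41. At ULA day 21 no cell of the 3 libraries held both KRT7 and KRT20, where the products gave 0.0424%, 0.00955% and 0.0565%.

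With TGFB1, cluster 4, led by GAL, MMP7 and CNTNAP2, held 66.5% and 80.1% of cells and 87.9% and 95.2% of KRT7 UMIs. In the controls the same cluster held 0.229% and 2.92% of cells and 5.82% and 35.8% of KRT7 UMIs. Within that cluster KRT7 was at 815 and 644 CPM with TGFB1 and at 348 CPM (22 cells) and 558 CPM (248 cells) in the controls; clusters were built on other genes, some of which also differ with treatment. In cluster 1, led by FABP1, MUC13 and TFF2, KRT7 was at 227 and 244 CPM against 37.0 and 84.6 CPM. Cluster 7, led by LGALS1, MT2A and TPM2, was low at 8.89 and 4.47 CPM with TGFB1 and 6.29 CPM in control replicate 2. With 1 cluster mostly in treated libraries, a cell state and a library effect cannot be told apart.

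KRT20 with OA sat mainly in gut-epithelial-like cluster 7, led by FABP2, APOA4 and FABP6. This cluster held 52.3% and 36.9% of OA cells and 92.2% and 89.9% of their KRT20 UMIs, and 74.3% and 73.3% of their KRT23 UMIs. It also held 40.7% and 38.5% of their KRT7 UMIs, beside 71.0% and 59.0% of their UMIs over all genes. Its KRT20 level was 2778 and 2826 CPM in the OA libraries and 651 and 139 CPM in the untreated libraries, where it had 56 and 30 cells; the OA controls had 30 and 20 cells of it, at 332 and 271 CPM. Cluster 3 held 16.6% and 37.9% of OA cells, 11.2% and 24.4% of their UMIs, and 5.67% and 7.20% of their KRT20 UMIs. It held 0.458% and 0.452% of cells in the OA controls. KRT20 was also higher in clusters other than 7. Cluster 2, led by MMP7 and GAL, was at 407 and 158 CPM with OA against 11.7 and 8.55 CPM, and cycling-like cluster 14 was at 241 and 262 CPM against 10.6 and 0.664 CPM. Squamous-like cluster 13, at 71.8 and 30.4 CPM with OA, was at 0 and 0.195 CPM in the controls. The levels in clusters 2, 14 and 13 stand beside very high KRT20 in the same droplet runs, and the part of free RNA in them was not tested.

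**Figure D5:**
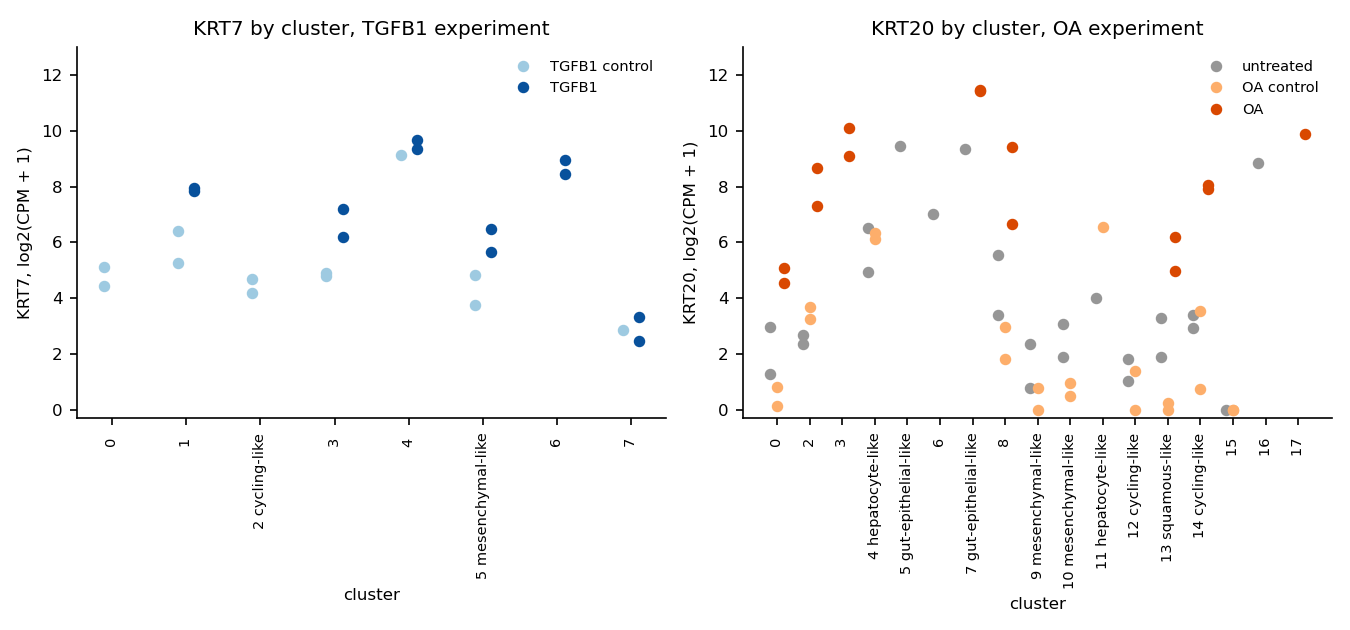
Level of KRT7 by cluster in the TGFB1 experiment (left) and of KRT20 by cluster in the OA experiment (right), as log2(CPM + 1) with 1 point for each library with at least 50 cells in the cluster. KRT7 peaks in cluster 4 of the TGFB1 libraries at 815 and 644 CPM, and KRT20 in gut-epithelial-like cluster 7 of the OA libraries at 2778 and 2826 CPM.

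Cluster 7 also held 52.1% of KRT20 UMIs in untreated replicate 1, and 31.2% and 29.5% in the OA controls. Hepatocyte-like clusters 4 and 11 held 19.4% and 10.0% in untreated replicate 1. In the OA controls cluster 4 held 24.5% and 36.3%, and cluster 11 held 0.288% and 10.8%. In untreated replicate 2, gut-epithelial-like cluster 5, led by REG4 and CEACAM5, held 4.04% of cells and 54.1% of KRT20 UMIs. In the PA experiment cluster 2, led by PHGR1, APOC3 and TFF2, held 91.0% to 97.4% of KRT20 UMIs, and its level was 55.1 and 107 CPM with PA against 27.9 and 17.02 CPM. At ULA day 21 hepatocyte-like cluster 3 held 98.0%, 94.0% and 99.01% of KRT20 UMIs. KRT7 at ULA day 21 was elsewhere, with 51.003%, 57.7% and 49.98% of its UMIs in cluster 7, led by VTCN1 and GABRP, and 38.9%, 30.8% and 36.1% in cycling-like cluster 6. At day 34 KRT19 was carried by cluster 8 in replicate 1, which held 92.4% of its UMIs, and by squamous-like cluster 10 in replicate 2, which held 49.7%.

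Other keratins, most of them from stratified epithelia, were counted by type. With TGFB1, 2 of the 9 other type II keratins tested were higher and none lower, a share near the 22.2% of all genes called: KRT6B (5.12, SE 0.55, edgeR adjusted p = 3.63e-05), a keratin of wounded and stratified epithelium, and KRT79 (3.38, SE 1.02, edgeR adjusted p = 0.0317), which rests on 16 and 9 UMIs against 0 and 2. Of 9 other type I keratins 1 was higher, KRT16, with 263 and 75 UMIs against 0 and 1. With OA, KRT12, the corneal keratin, was called higher on 23 and 24 UMIs against none, and KRT17 (-2.70, SE 0.89, edgeR adjusted p = 0.0256) and KRT4 (-2.18, SE 0.79, edgeR adjusted p = 0.0388), keratins of basal and of mucosal stratified epithelium, were lower, beside 43.3% of all genes called. PA and OA control against untreated called none. ULA was different: 8 of 8 other type II and 6 of 8 other type I keratins tested were higher on day 34 and none lower, beside 15.6% of all genes called and with the squamous markers given above. KRT6A rose from 0.725, 0.617 and 0.645 CPM to 307 and 141 CPM (8.27, SE 0.38, edgeR adjusted p = 2.35e-04), and KRT17 from 12.9, 8.80 and 9.64 CPM to 1236 and 2482 CPM (7.35, SE 0.38, edgeR adjusted p = 3.60e-04).

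Of 12 intermediate filament genes of other classes tested, 3 were higher and 2 lower with TGFB1 (median 0.77, beside -0.05 over all genes, of which 22.2% were called), including VIM, the mesenchymal vimentin (2.54, SE 0.51, edgeR adjusted p = 0.00374), NES, the neural stem cell filament nestin (2.28, SE 0.20, edgeR adjusted p = 9.62e-06), and the lamin LMNB1 (-2.17, SE 0.21, edgeR adjusted p = 1.58e-05). With OA none were higher and 10 lower (median -1.93, beside -0.08 over all genes, of which 43.3% were called), led by the muscle filament DES (-5.84, SE 0.57, edgeR adjusted p = 8.03e-06) and the neuronal filaments PRPH and NEFM. Outside mesenchymal-like clusters 8 of 12 were lower, beside 38.4% of all genes called there. VIM differed between OA and TGFB1 by -5.32 (SE 0.73, edgeR adjusted p = 1.34e-04).

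Of 18 epithelial junction and identity genes, 13 were higher with OA and none lower (median 1.04, beside -0.08 over all genes, of which 43.3% were called). CLDN7, a tight junction claudin, changed by 2.01, EPCAM by 1.92 and CDH1, E-cadherin, by 1.90, with edgeR adjusted p of 2.32e-04, 3.01e-04 and 1.75e-05. Outside mesenchymal-like clusters 9 of 18 were higher, beside 38.4% of all genes called there. With TGFB1 5 were higher and 2 lower (median 0.51, beside -0.05 over all genes, of which 22.2% were called), with CLDN7 at 1.40 (SE 0.31, edgeR adjusted p = 0.00588). At ULA day 34 none were higher and 3 lower, a share near the 15.6% of all genes called, with EPCAM at -1.18 (SE 0.27, edgeR adjusted p = 0.0276), while their median was -0.04 beside 0.01 over all genes. Outside mesenchymal-like clusters 1 was higher, GRHL2 (0.84, SE 0.22, edgeR adjusted p = 0.0483), and 1 lower, CLDN3 (-0.84, SE 0.21, edgeR adjusted p = 0.0477), beside 13.7% of all genes, so EPCAM was not called there.

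Desmosomes and hemidesmosomes anchor keratin filaments to the membrane. With OA 8 of their 17 genes were higher and none lower (median 0.77), a share near the 43.3% of all genes called, led by the plakin DST (2.80, SE 0.21, edgeR adjusted p = 1.33e-06), the integrin ITGA6 (1.94, SE 0.24, adjusted p = 4.27e-05) and the cadherin DSG2 (1.68, SE 0.20, adjusted p = 3.11e-05). Between OA control and untreated 1 of the 17 was called, DST (-1.07, SE 0.20, edgeR adjusted p = 0.0399), beside 0.573% of all genes; no gene was called there by edgeR with only the 2 groups, with the replicate block or without either OA control library. With TGFB1 4 were higher and 2 lower, beside 22.2% of all genes called, with DSP, the plakin that binds keratin, at 1.61 (SE 0.21, edgeR adjusted p = 1.26e-04) and EVPL at -1.72 (SE 0.51, edgeR adjusted p = 0.0274). At ULA day 34 14 of 17 were higher and 1 lower (median 1.57, beside 0.01 over all genes, of which 15.6% were called), among them DSG3 (4.95, SE 0.43, edgeR adjusted p = 0.00152) and DSC3 (3.52, SE 0.17, edgeR adjusted p = 2.95e-04), cadherins of squamous desmosomes. With PA none of the 17 was called.

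Of 13 regulators of keratin genes and turnover, 3 were higher with OA and none lower, a smaller share than the 43.3% of all genes called: the zinc finger factors KLF4 (1.69, SE 0.45, edgeR adjusted p = 0.00828) and KLF5 (1.14, SE 0.28, adjusted p = 0.00538) and the factor ETS2 (1.00, SE 0.20, adjusted p = 0.0013). With TGFB1 2 were higher and 2 lower, beside 22.2% of all genes called, with KLF5 at -1.83 (SE 0.29, edgeR adjusted p = 6.26e-04), ETS2 at 1.65 (SE 0.20, adjusted p = 8.84e-05) and CDX2 at -1.23 (SE 0.35, adjusted p = 0.0247). KLF5 differed between OA and TGFB1 by 2.98 (SE 0.40, edgeR adjusted p = 1.14e-04) and CDX2 by 2.05 (SE 0.49, adjusted p = 0.00648). At ULA day 34 2 regulators were higher and 2 lower, beside 15.6% of all genes called. KLF4 was at 1.68 (SE 0.36, edgeR adjusted p = 0.0236), CDX2 at -4.54 (SE 0.83, edgeR adjusted p = 0.014) and HNF4A, a hepatocyte and gut factor, at -3.56 (SE 0.77, adjusted p = 0.024).

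Across the 14 OS libraries, which share depth differences and controls within experiments, the keratins were correlated as a description, with no test. Gene lists and counting software differed between these experiments, and only genes listed in every OS library were used. On log2(CPM + 1) the Pearson correlation of KRT20 with KRT23 was 0.91, that of KRT7 with KRT19 was 0.76 and that of KRT18 with KRT19 was 0.76, while KRT8 with KRT18 reached 0.27 and KRT8 with KRT20 was -0.36. Among the 19360 other genes tested, those most like KRT7 were TNFRSF12A (0.97), P4HA2 (0.93) and KDELR3 (0.93), and without the 2 TGFB1 libraries these were 0.94, 0.92 and 0.92. Those most like KRT20 were GPD1 (0.99), AADAC (0.99) and MUC17 (0.98), and 0.96, 0.96 and 0.94 without the 2 OA libraries. Those most like KRT23 were TUBA1C (0.96), TUBB2A (0.96) and OAS1 (0.96). Those most like KRT8 were HAGH (0.96), RAB2A (0.95) and SLC35B1 (0.94), those most like KRT18 were GRPEL1 (0.92), PRDX1 (0.91) and YIF1A (0.89), and those most like KRT19 were MRPL22 (0.88), STN1 (0.87) and MRPS15 (0.87).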

How the data were processed

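Gene counts per cell barcode were used as raw UMI counts, exactly as deposited by the authors. Per the submitters' processing notes, they came from Cell Ranger 3.0.2 with bcl2fastq and Scanpy on GRCh38; per the file headers, the software was cellranger 6.0.2 for OA, OA control and untreated libraries and version 3.0.2 for the others. The smallest deposited barcode held 500 UMIs.

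Cells with 500 or more genes and 20% or less mitochondrial counts were kept (Python 3.11.15, scanpy 1.11.5). Counts were summed per library and tested with edgeR 4.0.16 in R 4.3.3 (filterByExpr, TMM, quasi-likelihood test, Benjamini-Hochberg adjustment over all genes tested, threshold 0.05), with the 14 OS libraries in 1 fit and the 5 ULA libraries in another. DESeq2 1.42.0 was an alternative. Shares of positive cells were taken after thinning each cell to 1000 UMIs, or 2000 as an alternative. Doublets were kept, and predicted doublets (Scrublet, 0.8% per 1000 barcodes) were removed as an alternative. Cells were clustered per experiment on 2000 variable genes without the 6 keratins and the listed other keratins (30 components, 15 neighbours, Leiden resolution 0.5). The 6 keratins were named in every comparison, with up to 3 genes of largest change among those called per list and the 3 genes most correlated with each keratin. Members and lists were chosen with earlier results of these data known. On simulated TGFB1 counts the test recovered 17 of 100 genes changed 2-fold and 63 of 100 changed 4-fold, with 2 false calls among 19366 genes. Intervals of depth were not computed for levels, and UMI depth limits KRT20 and KRT23 in the libraries where their UMIs are few. One result of a listed gene is not reported here.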

Additional observations from a re-analysis of the deposited data

How the results depend on the processing

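Alternatives were other size factors, no filter on low counts, DESeq2, stricter cells, doublet removal, fitting only the 2 groups, a replicate block and leaving out each library; leaving out squamous-like clusters in ULA, and leaving out clusters with more mesenchymal than epithelial marker UMIs, were chosen after seeing the data. KRT7 with TGFB1 and KRT20 and KRT23 with OA were called under each alternative run on whole libraries. For TGFB1, genes called ranged from 1704 to 5554 with a library left out, and keratins called were 2 with RLE factors, 5 with no filter, 4 with DESeq2 and 1 to 4 with a library left out. For PA, genes called were 162 with no filter, 54 with DESeq2, 16 with only the 2 groups and 0 to 20 with a library left out, and keratins called were 1 with no filter. For OA, genes called ranged from 5171 to 6570 with a library left out. For OA control against untreated, genes called were 523 with no filter, 702 with DESeq2, 0 with only the 2 groups and 0 to 164 with a library left out, and keratins called were 1 with no filter. For the OA minus PA effect, genes called ranged from 2112 to 3388, and keratins were 2 with no filter and 1 to 2 with a library left out. For the OA minus TGFB1 effect, 2 keratins were called with every deposited barcode, and with a library left out 4242 to 6841 genes and 2 to 4 keratins were. For the TGFB1 minus PA effect, genes called were 2766 with no filter and 755 to 2735 with a library left out, and keratins were 2 with no filter and 1 to 4 with a library left out. Outside mesenchymal-like clusters, leaving out a library gave 1933 to 5818 genes and 1 to 4 keratins for TGFB1, 0 to 19 genes for PA, 4102 to 5364 genes and 1 to 2 keratins for OA, and 264 to 8031 genes and 0 to 3 keratins for ULA. In whole ULA libraries it gave 697 to 7166 genes and 0 to 4 keratins, and 1 keratin remained called with squamous-like clusters left out. The cause was not tested for any of these.

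Replicate numbers were shared between groups, but same-numbered libraries did not deviate together, so the block is given only here. With the replicate block, genes called were 4 for PA, 0 for OA control against untreated, 1078 for the TGFB1 minus PA effect and 5 for PA outside mesenchymal-like clusters, and in ULA 0 genes and 0 keratins were called, both in whole libraries and outside those clusters; keratins called outside them with TGFB1 were 1. In ULA under the block KRT23 was at -0.50 and KRT8 at -0.0166.

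Log2 fold changes that changed sign under an alternative were those of members not called. With 1 library left out, PA gave -0.21 to 0.37 for KRT18, -0.39 to 0.13 for KRT7, -0.30 to 0.076 for KRT8 and -0.44 to 0.39 for KRT19. With OA, KRT19 was -0.0322 with stricter cells, -0.00634 without doublets, -0.0306 with only the 2 groups and -0.028 to 0.055 with 1 library left out. For OA control against untreated, leaving out 1 library gave -0.14 to 0.44 for KRT18, -0.056 to 0.78 for KRT7 and -3.03 to 0.25 for KRT20. In ULA it gave -2.54 to 1.12 for KRT23 and -0.23 to 0.22 for KRT8, and with squamous-like clusters left out they were -0.34 and -0.0515. Differences in thinned share changed sign for KRT19 with PA (0.238 at 2000 UMIs, 0.615 percentage points without doublets), for KRT19 and KRT23 between OA control and untreated (-3.70 and -0.157 at 2000 UMIs) and for KRT8 in ULA (-1.41 at 2000 UMIs). The cause was not tested.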
